A study of Mus musculus with 6 samples.

Results

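Long intergenic noncoding RNA (lincRNA) genes expressed in macrophages of the mouse aortic intima were compared between lipid-laden and lipid-poor cells. A gene was taken when GENCODE release M21 classed it as lincRNA, the deposited table placed it on an autosome, and its deposited CPM (counts scaled to the total of counts in genes) averaged at least 2 over the 6 libraries. This gave 67 genes of the 1966 autosomal lincRNA genes in the tables, which list 41388 genes in all. The genes were thus chosen by their mean over all 6 libraries, so the abundance of the 67 genes is a description, while the difference between the groups was not used to choose them. The genes just inside the threshold were Gm19705, Gm29336 and Gm16907, at mean CPM of 2.28, 2.22 and 2.01, and those just outside were E130102H24Rik, 6720427I07Rik and 4833407H14Rik, at 1.99, 1.93 and 1.79.

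A lincRNA is a capped transcript with little coding potential that is made from its own gene between protein-coding genes. Some lincRNAs stay in the nucleus and build nuclear bodies, some act on a gene nearby, and some are precursors from which a microRNA (miRNA) or a small nucleolar RNA is cut. In macrophages, individual lincRNAs are known from the inflammatory response, from cell survival and from cholesterol export.

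All cells came from C57BL/6 mice of genotype ApoE -/-, which develop atherosclerotic plaques, after 28 weeks on the diet labelled WD (Western diet). The series design counts 6 mice, the labels give no age, and no library of wild-type mice was analysed here. Foamy macrophages (3 libraries) were propidium iodide-negative CD64+CD11b+ cells with a high signal of BODIPY493/503, which stains stored lipid, and with high side scatter, and non-foamy macrophages (3 libraries) were CD64+CD11b+ cells low in both. The adventitia was removed before the tissue was digested for 70 min, and the sorted cells were lysed for bulk RNA sequencing. No label ties a library to particular mice, and p-values therefore describe how far these libraries scatter, which may be technical variation alone.

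Each library held between 15628627 and 24619075 counts in genes. Between 15595 and 17757 genes had a count in foamy libraries and between 19380 and 24701 in non-foamy libraries, and non-foamy replicate 1 stood apart with the most genes from the fewest counts. Macrophage markers summed to between 45761 and 49666 CPM in foamy and between 18026 and 24872 CPM in non-foamy libraries, most of it from Lyz2 and Cd68. All 8 were tested: Lyz2, Cd68 and Mertk were higher in foamy libraries, and Adgre1, Csf1r and Itgam were lower (log2 fold changes of -0.83, -1.28 and -0.87). T cell markers summed to at most 2.86 CPM in any library. Endothelial markers reached at most 16.2 CPM, smooth muscle markers 26.7 CPM and B cell markers 23.4 CPM. Neutrophil markers ran from 1.56 to 2.43 CPM in foamy and from 1.30 to 32.8 CPM in non-foamy libraries. Of the 2 tested, S100a9 was lower in foamy libraries (log2 fold change -8.23, edgeR adjusted p = 0.0077). S100a8 missed the threshold (log2 fold change -1.61, edgeR adjusted p = 0.58). Fibroblast markers ran from 2.45 to 159 CPM in foamy and from 7.71 to 291 CPM in non-foamy libraries. Dendritic cell markers ran from 0.332 to 15.99 against 33.1 to 250 CPM, in non-foamy libraries most of it from Cd209a. Cd209a was the 1 gene of these 5 that was tested, and it missed the threshold (edgeR adjusted p = 0.28). Clec9a went the other way, with counts in foamy libraries alone (at most 1.78 CPM). Monocyte markers summed to between 143 and 201 CPM in foamy and between 748 and 1149 CPM in non-foamy libraries, with 6 of 7 tested genes lower in foamy libraries. Immediate early and heat shock genes summed to between 2179 and 2600 against 4822 and 7240 CPM, with 12 of 13 lower. These markers differed between the same groups as the lincRNA genes, and their part in the lincRNA results was not tested. In bulk libraries, fewer cells of a type and less RNA per cell cannot be told apart.

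Of the lincRNA genes that changed, Mir155hg contains an miRNA gene, and Gm26532 and Gm26916 lie near others, whose mature sequences are shown. The search upstream and on the opposite strand covered the called genes only, so no share among the other genes is given. Genes that were not called can also contain miRNA genes, as Mir17hg does. Another is 2900076A07Rik, which contains Mir1839 (log2 fold change -0.10, edgeR adjusted p = 0.97). Mir155hg (ENSMUSG00000097418, GRCm38 chr16:84703167-84715245, plus strand, 3 exon blocks) contains Mir155, the gene of an miRNA induced in activated macrophages. Gm26532 (ENSMUSG00000097296, chr8:84208920-84209609, plus strand, 1 exon block) shares its first 2 bases with the hairpin of Mir24-2 and lies just downstream, on the same strand, of the Mir23a, Mir27a and Mir24-2 cluster. Gm26916 (ENSMUSG00000098088, chr14:61629484-61630414, plus strand, 2 exon blocks) lies inside the span of Dleu2, the host gene of Mir16-1 and Mir15a on the opposite strand. The miRNA sequences are those of RefSeq on GRCm38.p6, written 5′ to 3′, with the seed (bases 2 to 8), the stretch that pairs with target RNAs, in capitals:
miR-155-5p: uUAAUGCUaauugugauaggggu
miR-155-3p: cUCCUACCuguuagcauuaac
miR-23a-3p: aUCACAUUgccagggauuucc
miR-27a-3p: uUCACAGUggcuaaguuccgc
miR-24-3p: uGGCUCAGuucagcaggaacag
miR-16-5p: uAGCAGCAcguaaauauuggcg
miR-15a-5p: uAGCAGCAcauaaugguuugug
Among these 7 sequences, miR-16-5p and miR-15a-5p share one seed, AGCAGCA, and the others each have their own. Of these miRNA genes, only Mir155 lies wholly inside a called lincRNA gene. Mir16-1 and Mir15a are on the strand opposite to Gm26916, and Mir23a and Mir27a lie upstream of Gm26532. The sequencing measured the transcripts of the lincRNA genes, and no level of a mature miRNA was measured.

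The comparison asked which lincRNAs differ between foamy and non-foamy macrophages. Of the 67 genes, 65 had enough counts to be tested with edgeR's quasi-likelihood test, with p-values adjusted by Benjamini-Hochberg over all 11303 tested genes and the threshold set at 0.05. In foamy libraries 2 rose, AI427809 and Gm14461, and 5 fell, Mir155hg, Gm29340, Gm26916, AI504432 and Gm26532. That is 10.8% of the tested lincRNA genes, beside 5.41% of all genes (2.5% higher and 2.9% lower) and 5.5% of protein-coding genes. An unadjusted p under 0.05 was reached by 20 of the 65, beside 18.7% of all genes. The log2 fold change (foamy over non-foamy) was below 0 in 44 of 65 (67.7%), beside 52.8% of all genes, with a median of -0.45 against -0.04 over all genes. Without a filter on low counts the medians were -0.31 for the lincRNA genes and -0.66 over 29120 genes, so their order turned. Under scaling to total counts alone the median of all genes moved to -0.31 and that of the lincRNA genes to -0.76. The 3 foamy values lay entirely below the 3 non-foamy values in 20 lincRNA genes and entirely above in 4, beside 13.3% and 12.4% of all genes, and the groups overlapped in the other 41. The rule on mean level bears on these counts: 12 of the 65 averaged under 2 deposited CPM in foamy libraries alone and none in non-foamy libraries alone. All 12 had a log2 fold change below 0, 6 of them were among the 20 without overlap, and 1 of them, Gm29340, was called. The counts, the median and the share called are therefore a description of the chosen genes.

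**Figure D1:**
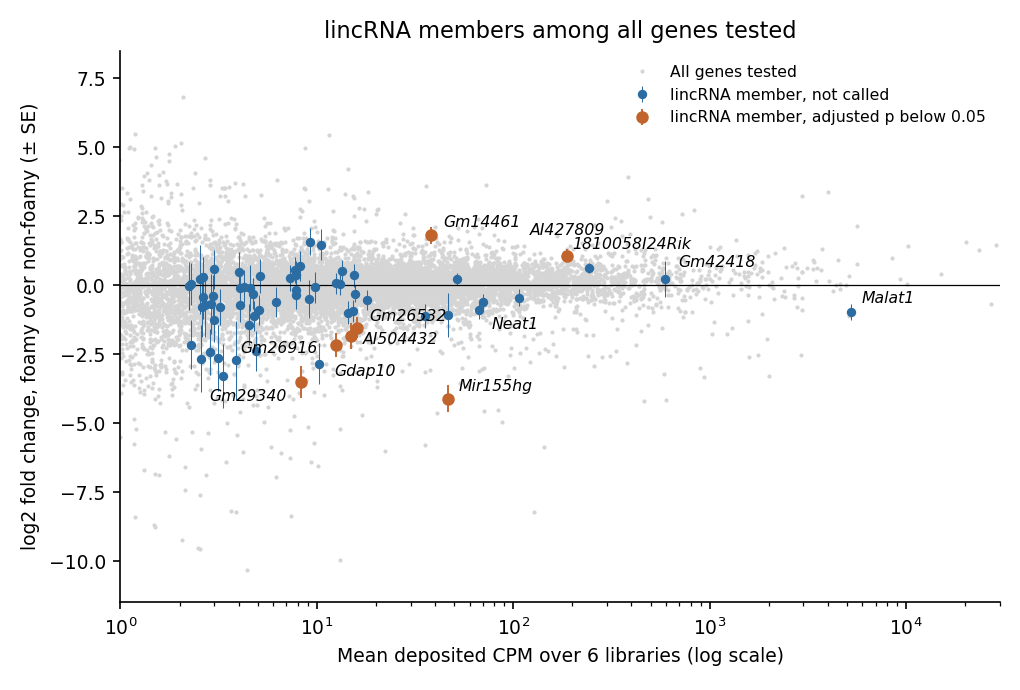
Log2 fold change, foamy over non-foamy, with its standard error (SE) against mean deposited CPM over the 6 libraries (log scale) for the 65 tested lincRNA genes and, in grey, all genes tested with a mean of 1 CPM or more. Orange points are the 7 lincRNA genes with an edgeR adjusted p below 0.05, of which 2 lie above and 5 below 0, and blue points are those that did not pass.

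Mir155hg had the largest change among the tested lincRNA genes in either direction. Its TMM-normalised CPM (scaled for library composition) was 3.94, 1.62 and 8.36 in foamy libraries (replicates 1, 2 and 3 in order, here and below) against 82.5, 88.0 and 72.0 in non-foamy libraries. Every foamy library was far below every non-foamy one. The means were 4.64 ± 3.43 (SD, n = 3) against 80.8 ± 8.12 CPM (log2 fold change -4.12 with SE 0.49, edgeR adjusted p = 0.00074). Behind them stood between 29 and 155 counts per foamy library and between 1524 and 1829 per non-foamy library. The call held under all 17 alternatives, with log2 fold changes from -4.84 to -3.71. Mrpl39, a mitochondrial ribosomal protein gene and its nearest tested coding neighbour at 2331 bases, had 23.7 ± 10.6 against 24.1 ± 10.7 CPM (log2 fold change -0.02).

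Gm29340 (ENSMUSG00000099470, GRCm38 chr2:116972575-116976428, minus strand, 1 exon block) overlaps no other annotated gene, and no function is assigned to it here. Its values were 1.71, 1.28 and 0.755 CPM in foamy and 10.6, 9.25 and 23.1 CPM in non-foamy replicates 1 to 3. The groups did not overlap, and non-foamy replicate 3 was the highest. The means were 1.25 ± 0.478 against 14.3 ± 7.66 CPM (log2 fold change -3.51 with SE 0.59, edgeR adjusted p = 0.0056), and the call held under all 17 alternatives. Its nearest tested coding gene, Spred1, an inhibitor of Ras signalling 144946 bases away, missed the threshold (log2 fold change -0.99, edgeR adjusted p = 0.076).

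Gm26916, inside the Dleu2 span, stood at 3.89, 2.62 and 6.31 CPM in foamy and 20.04, 20.6 and 16.97 CPM in non-foamy replicates 1 to 3. The non-foamy values were close together and all above the foamy ones. The means were 4.27 ± 1.88 against 19.2 ± 1.95 CPM (log2 fold change -2.17 with SE 0.43, edgeR adjusted p = 0.015). Dleu2 itself, which GENCODE does not class as lincRNA, averaged 6.67 against 20.2 CPM (log2 fold change -1.59, edgeR adjusted p = 0.033), a call lost in 8 of 17 alternatives, among them without any one foamy replicate (-1.65, -1.51 and -1.60), non-foamy replicate 2 (-1.42) or non-foamy replicate 3 (-1.51). By the deposited coordinates Gm26916 shares no exon bases with Dleu2 and lies only within its span. The sources used here do not say whether counting used strand, so reads of Gm26916 and of Dleu2 cannot be told apart with certainty. The call of Gm26916 was lost without foamy replicate 1 (-2.09) or 2 (-1.90) or without non-foamy replicate 2 (-2.11).

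Gm26532, at the Mir23a, Mir27a and Mir24-2 cluster, stood at 7.55, 10.5 and 5.55 CPM in foamy and 16.4, 27.1 and 25.2 CPM in non-foamy replicates 1 to 3. The means were 7.86 ± 2.47 against 22.9 ± 5.72 CPM (log2 fold change -1.54 with SE 0.38, edgeR adjusted p = 0.040). The groups did not overlap. The call was lost without any one foamy replicate (-1.51, -1.79 and -1.34 for replicates 1 to 3), without non-foamy replicate 2 (-1.40) or 3 (-1.45), with the replicate number as a block (-1.55), and in a test against a 1.5-fold change. Its nearest tested coding gene, Zswim4 at 1333 bases, had 1.49 ± 0.576 against 5.96 ± 4.24 CPM. Zswim4 missed the threshold (log2 fold change -1.99, edgeR adjusted p = 0.17).

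AI504432 (ENSMUSG00000056145, GRCm38 chr3:107039504-107054347, plus strand, 2 exon blocks) lies 1375 bases downstream of Kcna3, the gene of a potassium channel of leukocytes. By the deposited coordinates AI504432 shares its span, but no exon bases, with another annotated gene, so reads there cannot be assigned with certainty. AI504432 stood at 3.18, 5.79 and 9.60 CPM in foamy and 17.5, 19.9 and 29.1 CPM in non-foamy replicates 1 to 3, without overlap of the groups. The means were 6.19 ± 3.23 against 22.2 ± 6.12 CPM (log2 fold change -1.84 with SE 0.46, edgeR adjusted p = 0.040). Kcna3 was scarce, at 0.546 ± 0.157 against 1.34 ± 1.03 CPM, and missed the threshold (log2 fold change -1.30, edgeR adjusted p = 0.61). The AI504432 call was lost without foamy replicate 1 (-1.52) or 2 (-1.79), without any one non-foamy replicate (-1.99, -1.91 and -1.58 for replicates 1 to 3), and in the test against a 1.5-fold change.

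AI427809 (ENSMUSG00000086712, GRCm38 chr4:53261356-53270232, minus strand, 4 exon blocks) is the gene RefSeq names Mexis, known from mouse macrophages as a lincRNA induced by the sterol-sensing LXR receptors that promotes expression of the cholesterol exporter gene Abca1. It stood at 254, 221 and 310 CPM in foamy and 161, 120 and 91.6 CPM in non-foamy replicates 1 to 3, and each foamy library was above each non-foamy one. The means were 261 ± 45.0 against 124 ± 35.004 CPM (log2 fold change 1.07 with SE 0.23, edgeR adjusted p = 0.023). Abca1, its nearest tested coding gene, lies 101461 bases away on the same strand. It stood at 442, 748 and 761 CPM in foamy and 274, 317 and 208 CPM in non-foamy replicates 1 to 3, also without overlap (log2 fold change 1.29 with SE 0.24, edgeR adjusted p = 0.011). Replicate 3 was the highest foamy and the lowest non-foamy library for both genes. The AI427809 call was lost under scaling to total counts alone (0.78), with the replicate number as a block (1.09), in the test against a 1.5-fold change, and on leaving out foamy replicate 1 (1.10), foamy replicate 3 (0.94), non-foamy replicate 2 (1.05) and non-foamy replicate 3 (0.90) in turn. That of Abca1 was lost without foamy replicate 2 (1.19) or 3 (1.17) and in the 1.5-fold test.

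Gm14461 (ENSMUSG00000054510, GRCm38 chr2:78237547-78302230, plus strand, 6 exon blocks) had the largest rise among the tested lincRNA genes. RefSeq lists it as protein-coding. It stood at 51.6, 71.9 and 63.8 CPM in foamy and 11.9, 16.8 and 24.6 CPM in non-foamy replicates 1 to 3, without overlap. The means were 62.4 ± 10.2 against 17.8 ± 6.44 CPM (log2 fold change 1.81 with SE 0.31, edgeR adjusted p = 0.0061), and the call held under all 17 alternatives. It overlaps no other gene, and its nearest tested coding gene, the splicing factor gene Cwc22 at 291172 bases, missed the threshold (log2 fold change -1.06, edgeR adjusted p = 0.30).

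**Figure D2:**
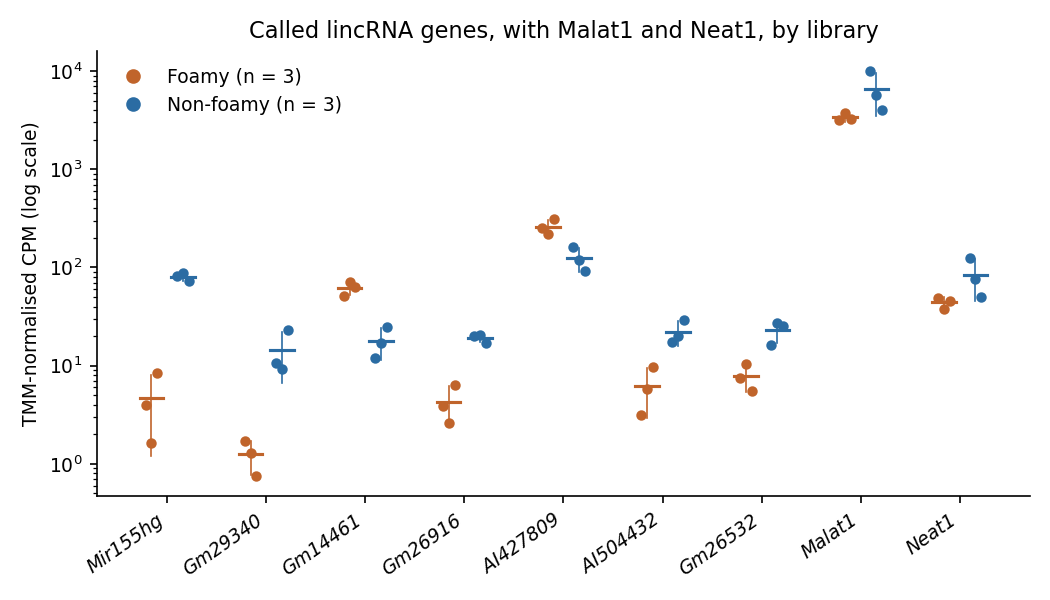
TMM-normalised CPM (log scale) of the 7 lincRNA genes that passed the test, with Malat1 and Neat1, in the 3 foamy (orange) and 3 non-foamy (blue) libraries; horizontal bars are means and vertical lines 1 SD. The foamy points lie below the non-foamy points in every gene shown except AI427809 and Gm14461, where they lie above.

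The promoters of the genes that rose are shown because these are the sequences at which transcription of AI427809 and Gm14461 begins. Each is the RefSeq window from 250 bases before to 50 bases after the start on GRCm38.p6, 5′ to 3′ on the gene's strand, at chr4:53270183-53270482 (minus strand) and chr2:78237297-78237596 (plus strand), with a TATAAA match in capitals:
AI427809 (Mexis): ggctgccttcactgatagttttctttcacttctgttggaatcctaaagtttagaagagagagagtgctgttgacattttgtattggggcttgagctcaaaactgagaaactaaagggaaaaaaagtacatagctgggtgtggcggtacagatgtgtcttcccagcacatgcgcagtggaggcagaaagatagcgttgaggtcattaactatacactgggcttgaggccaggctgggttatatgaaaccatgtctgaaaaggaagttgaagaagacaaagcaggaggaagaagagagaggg
Gm14461: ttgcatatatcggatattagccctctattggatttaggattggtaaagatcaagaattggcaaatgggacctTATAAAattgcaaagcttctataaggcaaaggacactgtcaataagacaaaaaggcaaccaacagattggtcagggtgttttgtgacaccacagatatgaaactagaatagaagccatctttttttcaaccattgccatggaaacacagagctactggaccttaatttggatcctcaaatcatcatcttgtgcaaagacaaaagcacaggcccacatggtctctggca
The TATAAA match of Gm14461 lies at position -178 from the start, and the window holds 1 CpG dinucleotide. The AI427809 window, the one of its 2 RefSeq windows that lies at the deposited start, holds 3 CpG dinucleotides and none of the 5 motifs searched. Over both strands, 65 windows of 43 of the lincRNA genes were searched beside all 32851 windows of the RefSeq table. TATAAA was found in 10.8% of the lincRNA windows and 13.6% of all, and the AP-1 motif TGANTCA in 10.8% and 7.81%. The PU.1 motif GAGGAAGT was found in 9.23% (6 windows) and 3.20%, the CRE motif TGACGTCA in 1.54% and 1.79%, and the NF-kB motif in 1.54% and 0.411%. Windows of one gene can overlap, and a match is a description of the letters only.

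Malat1, an RNA of nuclear speckles, made up most of the lincRNA counts in every library. The 67 genes together took 0.425, 0.546 and 0.469% of all counts in foamy and 1.36, 0.809 and 0.648% in non-foamy replicates 1 to 3. Each non-foamy library was above each foamy one, and the means were 0.480 ± 0.061 against 0.938 ± 0.372% (exact permutation test, two-sided p = 0.1, the smallest that 3 against 3 libraries allow). Malat1 alone took 0.274, 0.360 and 0.290% against 1.19, 0.609 and 0.418%. Without Malat1 the share was 0.172 ± 0.019 against 0.201 ± 0.029%, with overlapping groups (exact permutation p = 0.3). Without both Malat1 and Gm42418, a step that was not planned, it was 0.112 ± 0.010 against 0.142 ± 0.017%, and the groups did not overlap (exact permutation p = 0.1). The rule on mean level bears on these shares as well. Of the tested genes, 12 averaged under 2 deposited CPM in foamy libraries alone and 0 in non-foamy libraries alone. The shares are therefore a description of the chosen genes. The difference in share was -0.46 percentage points over all 6 libraries and -0.25 without non-foamy replicate 1, the library with the highest Malat1. The number of autosomal lincRNA genes with at least 1 count was also lower in each foamy library than in each non-foamy one. It was 396, 543 and 344 in foamy and 1201, 795 and 675 in non-foamy replicates 1 to 3, and its part in the share was not tested.

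**Figure D3:**
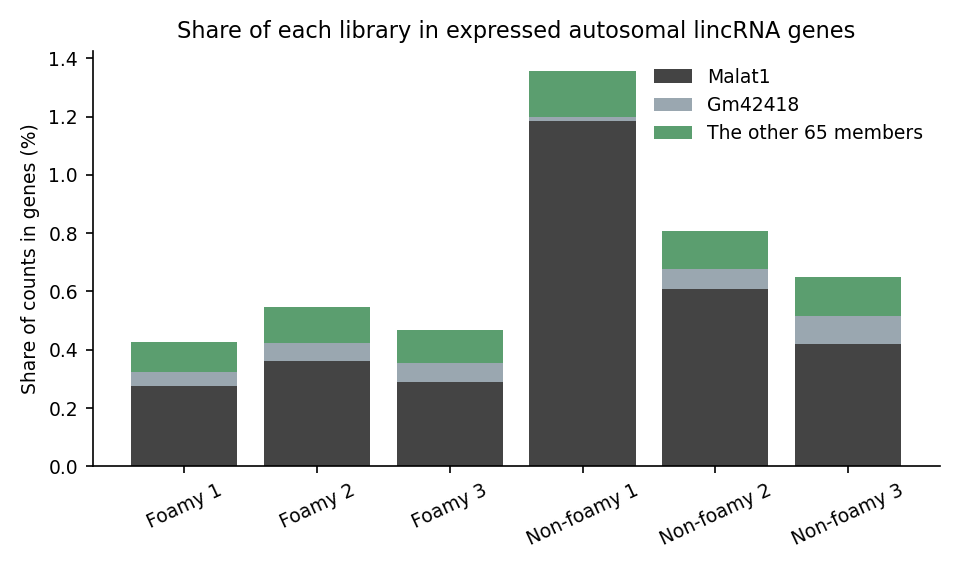
Share of each library's counts in genes (%) taken by the 67 lincRNA genes, stacked as Malat1, Gm42418 and the other 65. The shares were between 0.425 and 0.546% in foamy and between 0.648 and 1.36% in non-foamy libraries, and the Malat1 part is the largest in every bar.

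Malat1 (ENSMUSG00000092341, GRCm38 chr19:5795690-5802672, minus strand, 1 exon block) stood at 3163, 3726 and 3227 CPM in foamy and 10031, 5651 and 4051 CPM in non-foamy replicates 1 to 3. The groups did not overlap, but the non-foamy libraries were spread widely, and the gene missed the threshold (3372 ± 309 against 6578 ± 3096 CPM, log2 fold change -0.96 with SE 0.28, edgeR adjusted p = 0.079). It passed with DESeq2, with total counts only (-1.26), without a filter on low counts (-0.82), with a stricter filter (-0.99) and without non-foamy replicate 3 (-1.20). Its log2 fold change was -0.53 without non-foamy replicate 1. Neat1, the scaffold RNA of nuclear paraspeckles, encoded next to Malat1 on chromosome 19, had the same order of libraries in the non-foamy group. It stood at 48.7, 37.8 and 45.9 CPM in foamy and 124, 76.0 and 50.0 CPM in non-foamy replicates 1 to 3 (log2 fold change -0.91 with SE 0.31, edgeR adjusted p = 0.13). It passed with DESeq2 and without non-foamy replicate 3 (-1.17).

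None of the other nuclear lincRNAs in the list passed the test. 1700020I14Rik, which RefSeq names Oip5os1 and which is also known as Cyrano, stood at 55.6 ± 5.78 against 47.9 ± 3.54 CPM (log2 fold change 0.22, edgeR adjusted p = 0.68, and -0.06 under scaling to total counts alone). Pvt1, a lincRNA gene downstream of the oncogene Myc, stood at 14.3 ± 5.41 against 20.9 ± 3.89 CPM (log2 fold change -0.54, edgeR adjusted p = 0.49). Gm26917, one of the genes that overlap ribosomal RNA repeats, rested on a single library, since non-foamy replicate 1 held 72.0% of its summed CPM (0.539 ± 0.550 against 5.30 ± 6.402 CPM, log2 fold change -3.29 with SE 1.17, edgeR adjusted p = 0.14). Over the whole list of nuclear and architectural RNAs, 7 of 11 were tested and 0 were called in either direction by edgeR, beside 5.41% of all genes. Their median log2 fold change was -0.91. An unadjusted p under 0.05 was reached by 3 of the 7, Malat1, Neat1 and Gm26917, beside 18.7% of all genes. These 3 also passed with DESeq2, beside 10.6% of all genes with an adjusted p there.

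Gm42418, which RefSeq names Rn18s-rs5 and lists as a pseudogene of 18S ribosomal RNA, was the second most abundant lincRNA gene by the rule. It stood at 564, 668 and 731 CPM in foamy and 102, 630 and 954 CPM in non-foamy replicates 1 to 3. Non-foamy replicate 1 was the lowest and non-foamy replicate 3 the highest of the 6, so the groups overlapped (log2 fold change 0.22 with SE 0.65, edgeR adjusted p = 0.92, and -0.28 without non-foamy replicate 1). Malat1 and Gm42418 had opposite orders in the non-foamy libraries. Reads of ribosomal RNA copies can map to several places, and the sources used here do not say how these were counted.

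Among hosts of miRNAs, Mir17hg, the precursor of the miR-17 to miR-92 cluster, was near the lower limit of detection. It stood at 1.85, 0.056 and 0.054 CPM in foamy and 3.20, 3.91 and 5.59 CPM in non-foamy replicates 1 to 3. The groups did not overlap, but most of the foamy signal was in replicate 1, and the gene missed the threshold (log2 fold change -2.67 with SE 1.22, edgeR adjusted p = 0.27, and -6.11 without foamy replicate 1, where it passed). Of 14 miRNA hosts in the list, 8 were tested and 3 fell, Mir155hg, Dleu2 and Mir99ahg, beside 2.9% of all genes, with a median log2 fold change of -2.13 against -0.04. Mir99ahg, the host of Mir99a and not a lincRNA in GENCODE, averaged 0.587 against 7.25 CPM (log2 fold change -3.61, edgeR adjusted p = 0.013), and its call was lost with limma-voom and without foamy replicate 1 (-3.70), 2 (-3.56) or 3 (-3.54) or without non-foamy replicate 2 (-3.24).

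Another group of host genes carries small nucleolar RNAs, which guide ribosomal RNA modification. Snhg6 stood at 10.2 ± 2.71 against 19.5 ± 7.31 CPM (log2 fold change -0.94 with SE 0.41, edgeR adjusted p = 0.24). Snhg12 stood at 4.14 ± 1.37 against 4.30 ± 1.08 CPM (log2 fold change -0.05, edgeR adjusted p = 0.98), and its sign depended on the setting. Of 21 hosts in the list, 13 were tested and 1 fell, Snhg15, which GENCODE classes as processed transcript (10.4 against 42.6 CPM, log2 fold change -2.03, edgeR adjusted p = 0.0032), beside 2.9% of all genes, with a median log2 fold change of -0.34 over the list.

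Of 15 lncRNAs listed for immunity and stress, 8 were tested, and 1 fell, Mir155hg, beside 2.9% of all genes, with a median log2 fold change of -1.43. Dnmt3aos, an antisense RNA at the DNA methyltransferase gene Dnmt3a, had the largest positive log2 fold change among the 8, at 14.1 against 4.30 CPM, and missed the threshold (log2 fold change 1.72, edgeR adjusted p = 0.17). Gm14005, which RefSeq names Morrbid and which regulates the lifespan of myeloid cells through the neighbouring death gene Bcl2l11, stood at 13.8 ± 2.13 against 16.9 ± 1.70 CPM (log2 fold change -0.30, edgeR adjusted p = 0.71). Bcl2l11 had a log2 fold change of -0.26 (edgeR adjusted p = 0.77). AW112010, an RNA induced by interferon and bacterial products in macrophages, was spread widely within both groups, at 24.2, 12.1 and 53.0 CPM in foamy and 15.9, 32.6 and 139 CPM in non-foamy replicates 1 to 3. Replicate 3 was the highest of its group on each side, and non-foamy replicate 3 held 50.2% of the summed CPM (log2 fold change -1.07 with SE 0.80, edgeR adjusted p = 0.56). Neither the interferon-type nor the survival-linked lincRNA passed the test.

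The other lincRNA genes among the most abundant by CPM did not pass the test. 1810058I24Rik, which RefSeq lists as protein-coding and from which a mitochondrial micropeptide is known, stood at 288, 358 and 252 CPM in foamy and 171, 195 and 216 CPM in non-foamy replicates 1 to 3. Each foamy library was above each non-foamy one, and the gene passed with DESeq2 alone (log2 fold change 0.63 with SE 0.19, edgeR adjusted p = 0.091). Gm26623 stood at 54.2 ± 20.5 against 82.5 ± 8.63 CPM (log2 fold change -0.61, edgeR adjusted p = 0.28). Tmem250-ps stood at 88.3 ± 25.6 against 120 ± 51.5 CPM (log2 fold change -0.45, edgeR adjusted p = 0.52).

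Some lincRNA genes had larger fold changes that did not pass the test, and they were chosen for mention after their values were seen. Gdap10, inside the span of Nampt, the gene of an NAD synthesis enzyme, stood at 1.28, 5.13 and 0.539 CPM in foamy and 24.2, 9.36 and 16.1 CPM in non-foamy replicates 1 to 3. The groups did not overlap, and foamy replicate 2 was closest to the non-foamy libraries (log2 fold change -2.84 with SE 0.75, edgeR adjusted p = 0.053). It passed in 6 of 17 alternatives, among them without foamy replicate 2 (-4.16), while Nampt had a log2 fold change of 0.38 (edgeR adjusted p = 0.34). Gm13391 stood at 14.2 ± 4.24 against 4.79 ± 2.11 CPM without overlap (log2 fold change 1.57 with SE 0.50, edgeR adjusted p = 0.10), and Gm13710, whose nearest tested coding gene is the clotting inhibitor gene Tfpi, at 16.025 ± 7.07 against 5.75 ± 3.68 CPM with overlap (log2 fold change 1.47 with SE 0.56, edgeR adjusted p = 0.17). Gm13391 passed with DESeq2 and without a filter on low counts. Other genes missed the threshold with changes below 0 that were larger in size than these rises. They were 4933424M12Rik (log2 fold change -2.72), 4933433G15Rik (-2.63), Gm26522 (-2.42) and Gm17275 (-2.15), beside Gm26917, Mir17hg and Gm11110, which are described separately.

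**Figure D4:**
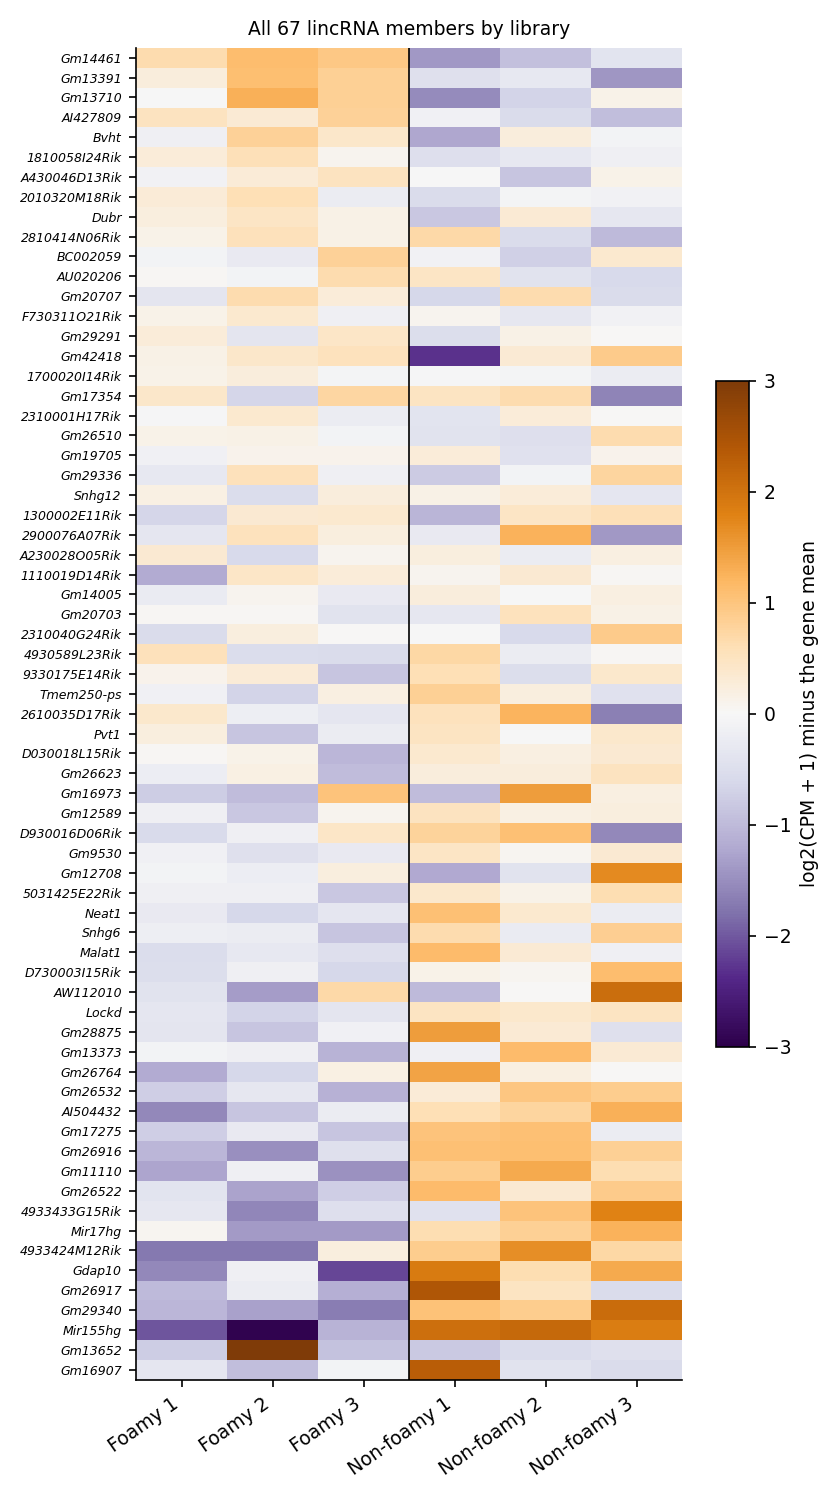
Heat map of all 67 lincRNA genes (rows, ordered by log2 fold change, with the 2 untested genes last) in the 6 libraries (columns); colour is log2(CPM + 1) minus the gene's mean over the libraries, orange above and purple below. Most rows at the bottom are purple in the 3 foamy columns, and Gm42418, Gm13652 and Gm16907 each have one library far from the others.

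The 2 genes left out of the test were each carried by one library. Gm13652 had 2, 352 and 0 counts in foamy and 1, 5 and 9 counts in non-foamy replicates 1 to 3, so that foamy replicate 2 held 96.2% of its summed CPM. Gm16907 had 11, 0 and 15 counts in foamy and 158, 8 and 8 in non-foamy replicates 1 to 3, with 80.4% in non-foamy replicate 1. Over all 67 genes, 62 had a count in every library, and 6 had over 50% of their summed CPM in one library.

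Per length of transcript, the lincRNA genes covered a wide range of abundance. Malat1 was highest in deposited RPKM (the deposited CPM divided by exon length in kilobases), at 441 ± 65.1 in foamy and 1056 ± 572 in non-foamy libraries. Gm42418 followed at 326 ± 51.0 and 325 ± 239 RPKM. Between these groups the order of the next genes differed: 1810058I24Rik (98.4 ± 22.8) and AI427809 (100.04 ± 15.1) were level in foamy libraries within their SDs, while in non-foamy libraries Gm26623 (106 ± 7.39 RPKM) stood above AI427809 (58.3 ± 20.5). Mir155hg had 2.90 ± 2.12 RPKM in foamy and 62.0 ± 8.85 RPKM in non-foamy libraries, and Gm26916, with 352 bases of exon, had 10.96 ± 4.61 and 60 ± 9.14 RPKM.

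The lincRNA genes were short, of few exons and mostly of low abundance. Their median exon length was 1944 bases in 3 exon blocks, against 10 blocks in tested protein-coding genes, and 7 had 1 block. Of the 67 genes, 53 were found in RefSeq, 47 of them as lncRNA and 4 as protein-coding. By their deposited coordinates, 41 overlap no other gene and 26 share their span with one, of which 18 share exon bases. Without the 26, there were 3 calls among 40 tested genes, beside 5.41% of all genes tested: AI427809, Gm14461 and Gm29340. The median of mean CPM was 7.77, against 13.3 for tested protein-coding genes, and the median SE of the log2 fold change was 0.56 against 0.45 over all genes. The test called 6 of the 25 genes that averaged 10 CPM or more, beside 8.18% of all genes at that level, and 1 of the 5 that averaged 100 CPM or more, beside 16.4%.

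Each lincRNA gene was set beside its nearest tested protein-coding gene, since position played no part in the choice. The median gap was 13095 bases, 10 of the 67 pairs had overlapping spans, and 6 had opposite strands with starts within 5 kb. Of the 65 pairs with a tested lincRNA, 45 (69.2%) had log2 fold changes of the same sign, 63.3% of the 30 pairs within 10 kb and 74.3% of the 35 pairs farther apart. Across the 65 pairs Pearson's r was 0.38 and Spearman's rho 0.44. All pairs share the same 6 libraries, so these are descriptions with no test. The share of same signs expected without any link between neighbours was not computed. Of the tested lincRNA genes, 67.7% had a log2 fold change below 0, which bears on that share.

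**Figure D5:**
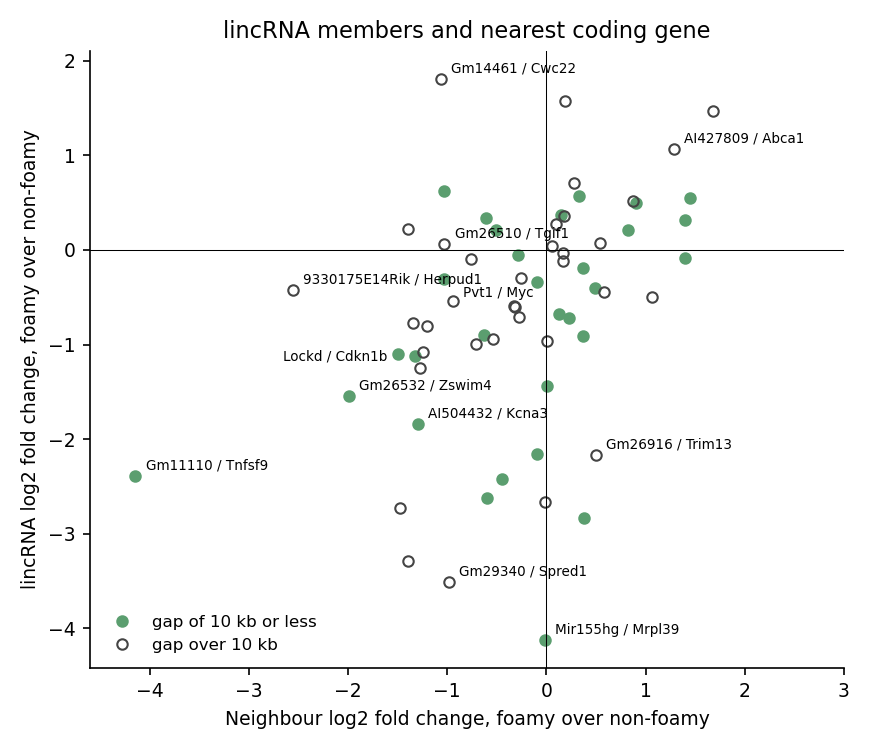
Log2 fold change, foamy over non-foamy, of each of the 65 tested lincRNA genes (vertical) against that of its nearest tested protein-coding gene (horizontal); filled points are pairs within 10 kb, open points pairs farther apart. AI427809 with Abca1 lies in the upper right, Gm11110 with Tnfsf9 in the lower left, and Mir155hg lies at -4.12 above a neighbour near 0.

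AI427809 with Abca1 was the one pair in which both genes passed the test, and 6 of the 7 called lincRNA genes had a neighbour that did not pass. In 11 pairs the neighbour passed, which makes 10 of the 65 distinct neighbours, 9 lower and 1 higher in foamy libraries, beside 5.5% of all tested protein-coding genes called in either direction. Gm11110, which overlaps the span of Tnfsf9, the gene of a costimulatory ligand of the TNF family, stood at 1.47 ± 1.29 against 7.69 ± 2.26 CPM without overlap and did not pass (log2 fold change -2.39 with SE 0.73, edgeR adjusted p = 0.090). Tnfsf9 had a log2 fold change of -4.15 (edgeR adjusted p = 9.0e-06). Gm11110 and Tnfsf9 share no exon bases by the deposited coordinates, but reads in the shared span cannot be assigned to one of them with certainty. Lockd, 3579 bases downstream of the cell cycle inhibitor gene Cdkn1b, stood at 2.94 ± 0.468 against 6.32 ± 0.229 CPM, also without overlap (log2 fold change -1.10 with SE 0.54, edgeR adjusted p = 0.31), beside -1.50 for Cdkn1b (edgeR adjusted p = 0.0030).

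For Pvt1 the neighbour Myc, 47612 bases away, fell (36.6 ± 5.59 against 70.4 ± 6.76 CPM, log2 fold change -0.94, edgeR adjusted p = 0.034). That call was lost in 8 of 17 alternatives, among them without any one foamy replicate (-1.06, -0.84 and -0.92 in order), non-foamy replicate 1 (-0.92) or non-foamy replicate 2 (-0.89). D730003I15Rik had a log2 fold change of -0.99 (edgeR adjusted p = 0.22) beside -0.71 for the stress transcription factor gene Atf3 (edgeR adjusted p = 0.029), a call also lost without any one foamy replicate (-0.75, -0.64 and -0.70), non-foamy replicate 2 (-0.70) or non-foamy replicate 3 (-0.65). 9330175E14Rik had -0.43 (edgeR adjusted p = 0.85) beside -2.56 for Herpud1, a gene of endoplasmic reticulum protein degradation (edgeR adjusted p = 0.00074). Gm26510 and Gm20703 both lie near Tgif1, a repressor gene of TGF-beta signalling that fell (log2 fold change -1.03, edgeR adjusted p = 0.0070), and had log2 fold changes of 0.06 and -0.31. The Tgif1 call was lost without foamy replicate 2 (-0.97). The remaining called neighbours, Ier5, Olfm1 and Jun, had log2 fold changes of -1.35, -1.27 and -1.21 beside -0.78, -1.24 and -0.80 for Gm9530, Gm13373 and Gm12708, none of which passed the test. Each of these calls was lost without foamy replicate 1 (-1.25, -1.27 and -1.21) or 3 (-1.17, -1.18 and -1.10), those of Olfm1 and Jun also without foamy replicate 2 (-1.33 and -1.29) or non-foamy replicate 2 (-1.24 and -1.20), and those of Ier5 and Jun without non-foamy replicate 3 (-1.14 and -1.11). Jun and Atf3 are also among the immediate early genes whose sums are given above.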

How the data were processed

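Bulk RNA-seq of 3 foamy and 3 non-foamy macrophage samples was used. Per the labels' protocols, libraries came from a SMARTer Ultra Low cDNA kit with 12 amplification cycles, and reads were single and 50 bases long. Alignment and counting tools are listed in the submitters' processing notes as STAR 2.0.4b, featureCounts 1.4.5 and Subread, on GRCm38. The deposited counts are whole reads per gene; the deposited CPM is the count scaled to the library's total of counts in genes, and the deposited RPKM is that CPM per kilobase of the listed length (checked to 1e-06). CPM set the membership and RPKM the levels per length. Tests used the counts.

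The test was edgeR's quasi-likelihood test (version 4.0.16, R 4.3.3; filterByExpr, TMM factors, robust fit), with p-values adjusted by Benjamini-Hochberg over every gene tested and a threshold of 0.05. Means are of TMM CPM. Alternatives were other scaling factors (RLE, upper quartile, total counts), DESeq2 1.42.0, limma-voom (limma 3.58.1), other filters, the replicate block, gene classes left out, a 1.5-fold test, other member thresholds and each library left out. Exact tests used scipy 1.17.1, and overlaps used bedtools 2.31.1. Pairs of libraries within a group all differed by more than sampling noise (chi-square over its degrees of freedom, 54.55 to 164.29). Foamy libraries had TMM factors between 0.868 and 0.967, non-foamy libraries between 1.035 and 1.186.

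Gene symbols were found for 97.26% of IDs, and 51 of the 67 genes have the same span in M21. Named genes were every called member, the 8 most abundant by CPM, members in the lists of nuclear RNAs, miRNA hosts, snoRNA hosts, immune lncRNAs and ribosomal repeats, the 3 genes on each side of the threshold, and the neighbours of called members; others were chosen after their values were seen. Members and lists were chosen with earlier results of these data known. The protocols name no molecular identifiers for the reads.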

Additional observations from a re-analysis of the deposited data

How the results depend on the processing

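For all genes, the 611 calls became 1173 with DESeq2 (528 higher, 645 lower, 10.6% of those with an adjusted p), 276 with the 1.5-fold test, 779 with total counts only (165 higher, 614 lower) and between 271 and 579 with one library left out. The count was 346, 316 and 271 without foamy replicates 1, 2 and 3 in turn, and 366 without non-foamy replicate 2. Called lincRNA genes numbered 15 with DESeq2 (all 7 and 8 more), 11 without a filter on low counts (all 7, with Gm13652 among the others), 4 with the 1.5-fold test, 3 without overlapping genes, and between 3 and 6 with one library left out (4 without foamy replicate 1, 3 without non-foamy replicate 2). The lincRNA median of -0.45 was -0.76 with total counts only, -0.37 with limma-voom, -0.31 without a filter (all genes -0.66), -0.34 with the stricter filter, and between -0.56 and -0.34 with one library left out. The difference in share, -0.46 points, was -0.029 without Malat1 and between -0.60 and -0.25 with one library left out. With the replicate number as a block, 391 genes and 5 lincRNA genes were called, with a lincRNA median of -0.375. Same-numbered libraries did not deviate together (correlations -0.071, -0.023 and -0.031). With 3 libraries per group such correlations cannot decide whether libraries share mice, so pairing stays unknown.

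Signs turned in genes near 0 or of low counts that were never called. Gm42418 was -0.28 without non-foamy replicate 1 and up to 0.85 with one other library left out, and 1700020I14Rik -0.057 with total counts only. Snhg12 was 0.065 without a filter and between -0.24 and 0.21 with one library left out. Gm19705 was -0.24 with total counts only and between -0.21 and 0.26 with one library left out. Gm29336 was 0.051 with limma-voom, 0.017 without a filter, 0.21 with the replicate block and between -0.49 and 0.76 with one library left out. In those genes the cause was not tested. Leaving out replicates leaves 2 libraries in a group, which are assumed to vary like the other group. Depth is lowest in the 42 of the 67 genes that average under 10 CPM.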
